A study of Solanum lycopersicum with 2 samples.

Results

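The 9 genes described here encode enzymes of carotenoid synthesis in tomato (Solanum lycopersicum), and their transcript levels were read from young primary leaf. They were taken by identifier as PSY1, PSY2, PDS, ZDS, CRTISO, LCYE, LCYB, CYCB and CHYB1, by a rule that uses no measured value although earlier results of these data were known when it was made, and all 9 were found among the 34725 gene models of the deposited table. RNA sequencing had been done on 1 library from plants labelled SlCycB2-OE, in which the B-type cyclin gene SlCycB2 is overexpressed (OE leaf), and on 1 library from plants labelled SlCycB2 RNAi, in which the same gene is targeted for silencing (RNAi leaf). Both groups were mature plants of the cultivar Ailsa Craig. The labels do not state the promoter, the number of transgenic lines or the number of plants behind a library, and wild-type leaf was not analysed here. No identifier in the table is paired with the name SlCycB2, so the level of the manipulated gene was not checked.

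Carotenoids are plastid pigments built from geranylgeranyl diphosphate. Phytoene synthase makes colourless phytoene, desaturases and isomerases convert it to red lycopene, and lycopene cyclases close its end rings to give the precursors of lutein and of beta-carotene and the xanthophylls. In leaves these pigments gather light and protect the photosynthetic apparatus, while in ripe tomato fruit lycopene accumulates in chromoplasts. Tomato keeps separate genes for some steps: PSY1 and CYCB are best known from fruit and flower chromoplasts, and PSY2 and LCYB from green tissue.

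Each library gave 1 level per gene in RPKM, reads per kilobase of transcript model, scaled to sequencing depth. RPKM is per length, so levels of different genes can be set side by side. Neither group has a replicate, so no test was possible, and every difference below describes these 2 libraries only. Differences between libraries are log2 ratios of RPKM plus a pseudocount of 1, SlCycB2-OE over SlCycB2 RNAi, a scale that understates the difference of low genes. Comparison was limited to the 19466 genes averaging 1 RPKM or more over both libraries, and 8 of the 9 carotenoid genes passed that filter, CYCB being the exception. The median log2 difference of all compared genes was 0.13 rather than 0, so the differences of the 9 genes and the medians of the gene lists are also given relative to that median.

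The tissue label was set against loci written down from general knowledge of tomato, whose functions were not checked against an annotation. Of 16 loci listed for leaf photosynthesis, 15 stood between 268.7 and 25689 RPKM over both libraries and the remaining one, Solyc07g017950, was listed at 0 in both. Of 10 loci listed for fruit ripening, 4 were listed at 0 in both libraries, and the highest level of any was 21.6 RPKM. The summed level of the fruit list was 35.4 RPKM in RNAi leaf and 39.2 RPKM in OE leaf.

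Phytoene synthase, the entry step of the pathway, was represented in leaf mainly by PSY2. PSY2 (Solyc02g081330.2.1, chromosome 2 by its identifier) stood at 54.7 RPKM in RNAi leaf and at 59.2 RPKM in OE leaf. Its log2 difference was 0.11, or -0.02 relative to the median gene, so that its sign depends on the scaling. PSY1 (Solyc03g031860.2.1, chromosome 3), the enzyme known for lycopene formation in ripening fruit, was at 6.29 RPKM in RNAi leaf and 9.16 RPKM in OE leaf. This was the largest log2 difference of the 9 genes, 0.48, and 0.34 relative to the median gene. It is a ratio of 1.46 without a pseudocount. Of all compared genes, 20.1% lay at least as far from 0, and 28.5% at least as far from the median.

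The desaturation and isomerisation steps were carried by genes of middle to high level with close values in both libraries. PDS (Solyc03g123760.2.1, chromosome 3), which introduces double bonds into phytoene, was at 70.9 RPKM in RNAi leaf and 64.5 RPKM in OE leaf. Its log2 difference of -0.14 was the lowest of the 9 genes, and it was -0.27 relative to the median gene. ZDS (Solyc01g097810.2.1, chromosome 1), which carries the desaturation on from zeta-carotene, was at 82.1 RPKM in RNAi leaf and 86.5 RPKM in OE leaf. The log2 difference of ZDS was 0.07, or -0.06 relative to the median gene. The level of ZDS over that of PDS was thus 1.16 in RNAi leaf and 1.34 in OE leaf. CRTISO (Solyc10g081650.1.1, chromosome 10), the isomerase whose loss gives the tangerine fruit colour in tomato, had the closest pair of values, 38.7 RPKM in RNAi leaf and 38.8 RPKM in OE leaf. Relative to the median gene its log2 difference was -0.13.

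At the branch point after lycopene, the epsilon-cyclase LCYE (Solyc12g008980.1.1, chromosome 12), which leads towards lutein, had the highest level of the 9 genes. It stood at 122.2 RPKM in RNAi leaf and at 125.1 RPKM in OE leaf, above 96.1% and 96.0% of the detected genes of the respective library. The log2 difference of LCYE was 0.03, or -0.10 relative to the median gene. LCYB (Solyc04g040190.1.1, chromosome 4), the beta-cyclase known from green tissue, was at 28.6 RPKM in RNAi leaf and 26.4 RPKM in OE leaf, a log2 difference of -0.11 and of -0.25 relative to the median gene. CYCB (Solyc06g074240.1.1, chromosome 6), the chromoplast beta-cyclase behind the Beta fruit colour mutant, was near the floor. Its levels were 0.68 RPKM in RNAi leaf and 0.83 RPKM in OE leaf, above 15.3% and 16.8% of the detected genes. Its mean of 0.76 RPKM lay below the filter, and the depth behind so low a value is not known, so no difference is read from it. LCYE exceeded the sum of LCYB and CYCB, the beta-cyclases among these 9 genes, 4.17-fold in RNAi leaf and 4.59-fold in OE leaf.

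Downstream of the beta-cyclases, CHYB1 (Solyc06g036260.2.1, chromosome 6), a hydroxylase that turns beta-carotene into zeaxanthin, was at 12.2 RPKM in RNAi leaf and 15.4 RPKM in OE leaf. Its log2 difference was 0.31, the next largest after PSY1, and 0.17 relative to the median gene. Of all compared genes, 37.6% lay at least as far from 0, and 55.5% at least as far from the median. CHYB1 and PSY1, the pair with the largest differences, had the lowest levels among the 8 compared genes.

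The order of levels was the same in both libraries for all 9 genes, from LCYE through ZDS, PDS, PSY2, CRTISO, LCYB, CHYB1 and PSY1 to CYCB. No neighbours in this order overlapped between libraries. The closest as a ratio were PDS and PSY2, where the lower PDS value of 64.5 RPKM was 1.09 times the higher PSY2 value of 59.2 RPKM. Whether such a gap exceeds the spread between plants cannot be said from single libraries. The summed level of the 9 genes was 416.5 RPKM in RNAi leaf and 425.9 RPKM in OE leaf, a ratio of 1.02. LCYE alone made up 29.3% and 29.4% of these sums.

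**Figure D1:**
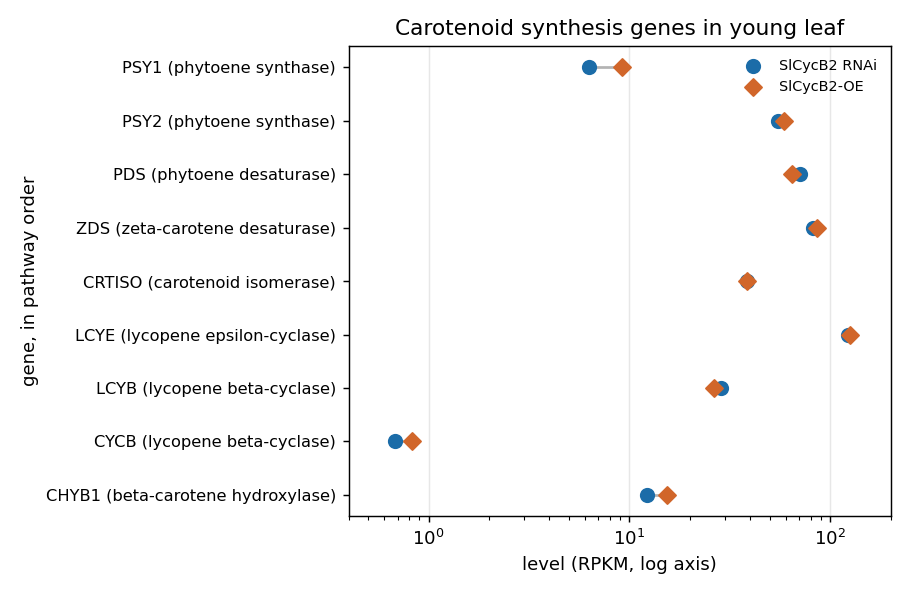
Level of each of the 9 genes in RPKM on a log axis, in pathway order from top to bottom, with a circle for the SlCycB2 RNAi library and a diamond for the SlCycB2-OE library (1 library each, no error bars). The symbols lie close together for every gene, and the chromoplast-type genes PSY1 and CYCB lie far to the left of PSY2 and LCYB.

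In both libraries the leaf-type paralog exceeded the fruit-type paralog at each of the steps that have a pair among these genes. PSY2 exceeded PSY1 8.70-fold in RNAi leaf and 6.46-fold in OE leaf. On the log2 scale with the pseudocount the ratio was 2.93 in RNAi leaf and 2.57 in OE leaf. PSY1 thus made up 10.3% of the summed PSY1 and PSY2 level in RNAi leaf and 13.4% in OE leaf. That sum was 61.0 RPKM in RNAi leaf and 68.4 RPKM in OE leaf.

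LCYB exceeded CYCB 42.1-fold in RNAi leaf and 31.8-fold in OE leaf. With the pseudocount these ratios were 4.14 and 3.91 on the log2 scale, and their size depends on the pseudocount because CYCB is so low. CYCB made up 2.32% of the summed LCYB and CYCB level in RNAi leaf and 3.04% in OE leaf. Other loci listed for carotenoid synthesis were not part of this sum. The sum of both genes was 29.3 RPKM in RNAi leaf and 27.3 RPKM in OE leaf. How the authors assigned reads that fit more than 1 gene is not given in the sources used here, and whether paralogs shared reads was not tested.

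**Figure D2:**
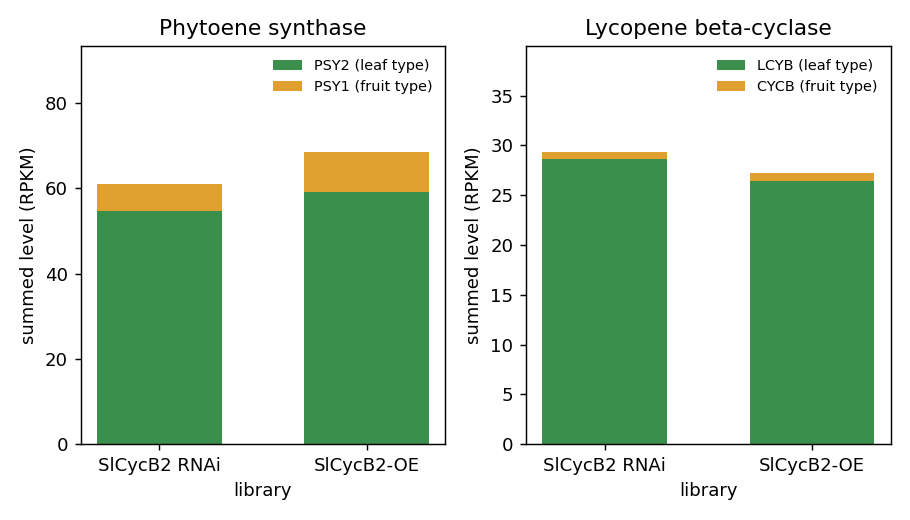
Summed level in RPKM of the phytoene synthase pair (left) and the lycopene beta-cyclase pair (right) in each library, stacked as leaf-type gene (lower part) and fruit-type gene (upper part), with 1 library per bar. PSY1 takes up 10.3% and 13.4% of the left bars, and CYCB 2.32% and 3.04% of the right bars.

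None of the 8 compared genes was 2-fold apart between the libraries, where 4.52% of all compared genes were at least 2-fold apart either way (2.60% with the higher value in OE leaf and 1.92% with the lower). None was 1.5-fold apart either, against 14.0% of all compared genes. With only 8 genes, a count of 0 is close to what these background shares give, so it says nothing particular about the pathway. The median log2 difference of the 8 genes was 0.05, beside 0.13 for all compared genes. Their median absolute log2 difference was 0.11, beside 0.23 for all compared genes and 0.21 for the 13541 genes with a mean of at least 5 RPKM. These distances are from 0, while the median of all compared genes was 0.13. The same measure relative to the median gene was not computed, so the smaller value is not read as a result about the pathway.

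Relative to the median gene, 2 of the 8 genes, PSY1 and CHYB1, were higher in OE leaf and the other 6 were lower. Of all 19466 compared genes, 9733 lie on each side by definition. As deposited, 6 had a difference above 0 and 2, PDS and LCYB, below 0, beside 67.8% of all compared genes above 0, so this split is near the background. Each of the 8 differences was smaller than 1 SD of the log2 differences of the 500 compared genes nearest to it in level, which ranged from 0.38 to 0.65. That SD is across genes and is no substitute for replicates. The share of all compared genes within such an SD was not counted. Their median absolute log2 difference of 0.23 is below the smallest of these SDs. That all 8 genes lay within it is therefore not read as a result about the pathway.

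**Figure D3:**
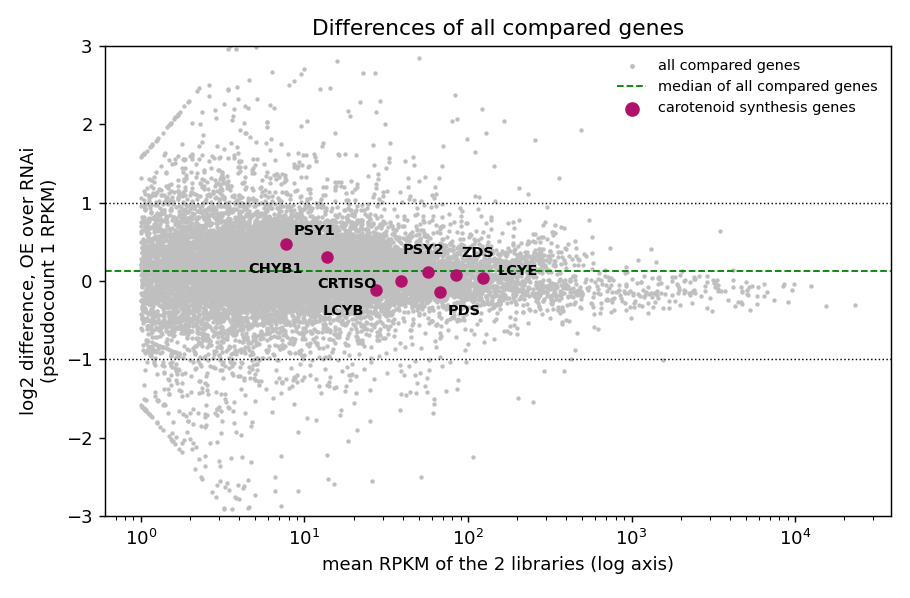
Log2 difference (SlCycB2-OE over SlCycB2 RNAi, pseudocount 1 RPKM) against mean RPKM on a log axis for all compared genes in grey and the 8 compared carotenoid genes as labelled points; dotted lines mark 2-fold, the dashed line the median of all compared genes, and 74 genes lie outside the plotted range. The labelled genes lie between -0.14 and 0.48, inside the dotted lines.

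Further loci of the pathway and its surroundings were taken as 3 lists of identifiers written down from general knowledge, with functions not checked against an annotation. Of 9 other loci listed for carotenoid synthesis, 7 were compared and 0 were 2-fold apart. All 7 lay below the median gene, where by definition 9733 of the 19466 compared genes lie. Their median log2 difference was -0.12 (-0.25 relative to the median gene), with a range from -0.28 to 0.10. The lowest, Solyc02g063170, was at 5.71 RPKM in RNAi leaf and 4.53 RPKM in OE leaf. Among the 7 compared, the only one with a higher value in OE leaf was Solyc04g050930, at 41.8 RPKM in RNAi leaf and 44.8 RPKM in OE leaf. The most abundant, Solyc02g090890, stood at 113.8 RPKM in RNAi leaf and 103.7 RPKM in OE leaf, close to the level of LCYE.

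Of 8 loci listed for carotenoid cleavage, the route to apocarotenoids and abscisic acid, 4 were compared and 0 were 2-fold apart. Their median log2 difference was 0.00, with 2 loci above 0 and 2 below, and -0.13 relative to the median gene. The largest difference was that of Solyc08g075490, at 34.9 RPKM in RNAi leaf and 49.1 RPKM in OE leaf, 0.48 on the log2 scale. The smallest value was -0.17, that of Solyc01g087260 at 14.4 and 12.7 RPKM. Another 2 loci of this list were listed at 0 in both libraries.

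Among 9 loci listed for the plastid precursor pathway that feeds phytoene synthase, 8 were compared and 0 were 2-fold apart, with a median log2 difference of 0.06. Relative to the median gene this median was -0.08, with 6 of the 8 loci below, so its sign depends on the scaling. Their extremes were Solyc08g081570, at 64.6 RPKM in RNAi leaf and 90.3 RPKM in OE leaf (0.48 on the log2 scale), and Solyc03g114340, at 103.9 and 89.5 RPKM (-0.21). The precursor loci thus ranged from -0.21 to 0.48, and the 8 carotenoid genes from -0.14 to 0.48.

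The photosynthesis loci also lay below the median gene. All 15 compared photosynthesis loci had a lower value in OE leaf, where 67.8% of all compared genes had a higher one. Their median log2 difference was -0.11 (-0.25 relative to the median gene), and 0 were 2-fold apart. Many of these loci have neighbouring identifiers, and whether they shared reads was not tested, so they may not be separate observations. They ranged from -0.32 for Solyc03g034220, at 17178 RPKM in RNAi leaf and 13750.1 RPKM in OE leaf, to -0.01 for Solyc03g005780, at 5002 and 4971 RPKM. The list held 14.7% of the RPKM sum in RNAi leaf and 13.1% in OE leaf. Because RPKM is relative to the reads of the library, such a share bears on every other level, and its part in the differences of the carotenoid genes was not tested.

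Among the fruit ripening loci 1 of the 5 compared was more than 2-fold apart, Solyc02g077920, at 1.85 RPKM in RNAi leaf and 6.85 RPKM in OE leaf. Its log2 difference was 1.46, and with a pseudocount of 5 it was within 2-fold. The other 4 ranged from -0.15 to 0.63, with 2 of them above 0 and 2 below. The lowest was Solyc03g111720, at 21.6 RPKM in RNAi leaf and 19.4 RPKM in OE leaf. The median of the 5 loci was 0.14, or 0.01 relative to the median gene.

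**Figure D4:**
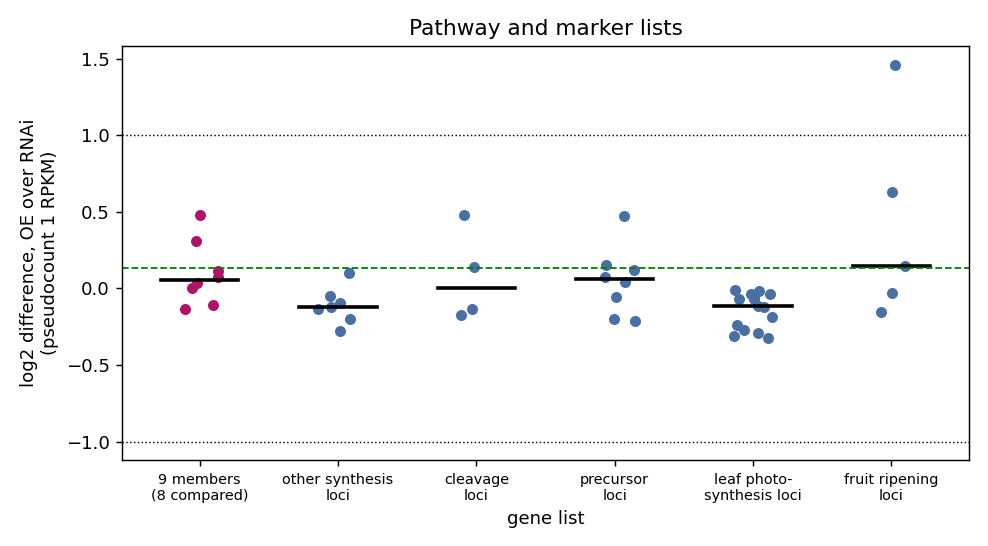
Log2 difference (SlCycB2-OE over SlCycB2 RNAi, pseudocount 1 RPKM) of each compared gene in 6 lists, 1 point per gene, with a bar at the list's median; dotted lines mark 2-fold and the dashed line the median of all compared genes. The carotenoid genes and the pathway lists lie within 2-fold, and 1 fruit ripening locus lies above it at 1.46.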

How the data were processed

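The authors deposited RPKM values, rounded to 2 decimals, for 1 library per group, per the file headers. Per the submitters' processing notes TopHat was used, with no version given. No source used here gives the counting program, the genome build or whether strand was used. Read totals are not given. Among 2589 low genes, values fitted whole-read multiples best when 1 read was worth 1.02 times as much in OE leaf as in RNAi leaf (27.96% of genes, against a median of 3.90% over the range scanned, 0.7 to 1.4), so libraries of similar depth fitted best in that range.

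Genes were matched by the identifier before the first dot. None of the 34725 identifiers occurs in the RefSeq gene table used for names (assembly SLM_r2.1). Of the 9 gene symbols, 8 were found there as symbol or synonym, ignoring case and hyphens, and all 8 lay on the chromosome that the identifier gives. LCYE, LCYB and CYCB were found only as synonyms, of CRTL-E-1, LCY1 and NSY respectively, and CHYB1 was not found. The log2 differences used a pseudocount of 1 RPKM and a mean RPKM of at least 1. The text names all 9 genes and the extremes of each list, plus Solyc02g090890 and Solyc07g017950, chosen after their values were seen. No gene was named for a similar pattern, since 2 libraries cannot measure one. The genes and lists were chosen with earlier results of these data known. The 8 alternatives changed the pseudocount, scaling, filter or fold limit. Recovery of known changes was tested on simulated data. Python 3.11.15, numpy 2.4.6, pandas 2.3.3 and matplotlib 3.10.9 were used.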

Additional observations from a re-analysis of the deposited data

How the results depend on the processing

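The 9 carotenoid genes gave 45 log2 differences under the 5 alternatives that apply to single genes, between -0.29 and 0.54. All 45 stayed within 1 SD, across the compared genes nearest in level, of the reported value. The scaling alternatives could not have passed this limit. They shift genes by a log2 of at most 0.1533, and the smallest SD was 0.3752. The pseudocount alternatives could not have passed it either. A pseudocount of 5 only draws a difference towards 0, and each difference was already smaller than its SD. With a pseudocount of 0.1 a difference cannot exceed the log2 ratio without a pseudocount, which for these genes lies within the limit. That all 45 stayed within it is therefore not read as a result. For CYCB, below the filter, the SD came from genes of higher level, and no difference is read from CYCB. Signs were less stable, because most differences are smaller than the shift of all genes. Centring on the median gene changed the sign of 5 genes (PSY2, ZDS, CRTISO, LCYE and CYCB), and scaling by a trimmed mean of ratios, a log2 shift of 0.15, changed it for the first 4 of these. The median of the 8 compared genes was then -0.08 and -0.10. The count of carotenoid genes past the limit was 0 in each direction under all 8 alternatives, the 1.5-fold limit included. The log2 ratio of LCYB over CYCB was 5.20 in RNAi leaf and 4.83 in OE leaf with a pseudocount of 0.1, and 2.56 and 2.43 with a pseudocount of 5. Genes 2-fold apart among all compared numbered 901 higher and 573 lower with a pseudocount of 0.1, 141 and 128 with 5, and 222 and 155 at a mean of at least 5 RPKM, where fewer genes were compared. At 1.5-fold they numbered 1823 and 893. Fruit ripening loci past the limit numbered 2 with a pseudocount of 0.1, 2 at 1.5-fold, 0 with a pseudocount of 5 and 0 at a mean of at least 5 RPKM. Leaving out a replicate was not possible. No paired analysis was possible because each group has a single library.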
